A study of Rattus norvegicus with 13 samples.

Results

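Probes with on-off differences between hearts are array probes whose 13 signals from rat left ventricle fall into a bright set and a dim set with a wide empty gap between them. They were chosen from measured values. For each non-control probe, apart from those of RT1 genes (the rat major histocompatibility complex), the signal was put on a log2 scale relative to the array's 75th percentile, which is the level used throughout. The 13 levels were sorted, and a probe was kept when the widest step between neighbouring arrays exceeded 1.5, at least 2 arrays lay on each side, and every array above the gap read the probe well above its local background. The rule found 118 of 30367 probes. That is 0.606% of the 19457 probes that were well above background on at least 2 arrays. The gaps, levels and sides of these 118 probes are therefore descriptions and carry no test. At the edge of the rule, the narrowest gaps kept were those of Olr326 (1.51), Dnai1 (1.53) and an unnamed probe, A_64_P034219 (1.54). The widest gaps left out were those of Fam131b (1.48), Tapbpl (1.46) and A_64_P088227 (1.46).

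The study compared male rats that overexpress ADBR3, the label's spelling for the beta-3 adrenergic receptor, with wild-type (WT) rats. All were 45 weeks old, and total RNA of the left ventricle was labelled with Cy3 and hybridised to 1-colour Agilent arrays with probes of 60 bases. There were 6 WT arrays and 7 arrays of overexpressing rats (OE), numbered here by the heart number of their label. How the receptor was overexpressed, in which cells and on what strain background, is not stated in the labels or files used here. WT arrays 1 and 2 were separate labelings of RNA from 1 rat, as were OE arrays 1 and 2. WT array 5 and OE array 4 repeated the hybridization of another rat of their group whose array the labels do not name. The arrays thus stand for 4 WT and 5 OE rats, and these 9 rats were used for tests, without WT array 5 and OE array 4.

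A probe on such an array reports the labelled RNA that pairs with its own 60 bases. A gene is read by 1 probe or by a few probes placed at different points of its transcript, so probes of 1 gene need not rise and fall together. Transcripts differ between animals in amount, in the exons they hold and in their sequence, and near-identical copies of a gene can share a stretch of probe sequence. Other probes of a gene, and repeat arrays of 1 rat, are therefore measurements against which a single probe can be read.

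The arrays were alike in overall signal. WT array 2 had the fewest spots well above background, and its lowest such reading was the highest (-5.11, against -6.54 to -5.29 on the others). The 75th percentile of the signal lay between 760.4 and 908.7 units, 55.2% to 67.8% of the 58717 non-control spots were well above background, and no spot was saturated. All 10 ventricular cardiomyocyte markers were well above background on all 13 arrays, at a mean level of 7.28 to 7.66. OE array 6 had the highest mean of the atrial and conduction markers (1.89, against 0.22 to 0.82 on the other OE arrays) and of the adipocyte markers (-1.14, against -3.15 to -2.42). No member of the on-off set belonged to any of the 13 marker lists. The arrays came from 5 slides scanned on 2 days. OE arrays 1 and 2 lay on different slides and days, as did WT arrays 4 and 5 and OE arrays 3 and 4. WT arrays 1 and 2 shared a slide and a scan day.

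The following probes carry the patterns described below. Their positions are those of the rat genome build rn4 given in the array files, where an interval written in descending order is given here as the minus strand. No gene model of that build was used, so exons and introns are not given. The first pair reads the same gene, Cd300lg, at chr10:91121069-91121128 and chr10:91119998-91120057, both on the plus strand, and the probes share no run longer than 6 bases.
Cd300lg, A_64_P032951: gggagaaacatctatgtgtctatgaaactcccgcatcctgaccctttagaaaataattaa
Cd300lg, A_64_P042742: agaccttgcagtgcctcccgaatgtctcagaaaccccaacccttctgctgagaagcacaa
The next pair reads neighbouring genes, RGD1306750 at chr4:169955746-169955805 (minus strand) and Tas2r120 at chr4:169981250-169981309 (plus strand).
RGD1306750: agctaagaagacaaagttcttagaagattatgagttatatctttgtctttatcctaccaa
Tas2r120: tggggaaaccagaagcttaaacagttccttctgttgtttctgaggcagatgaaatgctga
Plekho2 at chr8:69810813-69810872 (minus strand) and RGD1309808 at chr7:115655393-115655452 (plus strand) lie on different chromosomes and shared 1 division of the arrays.
Plekho2: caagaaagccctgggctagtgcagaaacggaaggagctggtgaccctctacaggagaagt
RGD1309808: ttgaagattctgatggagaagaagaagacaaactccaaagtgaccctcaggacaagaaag
The probe of Usp9x at chrX:21608159-21608218 (minus strand) divided the arrays, and its bright arrays were the lowest on the other probes of its gene, by small steps. That of Efcab6 at chr7:121891170-121891229 (minus strand) had more than 2 levels.
Usp9x: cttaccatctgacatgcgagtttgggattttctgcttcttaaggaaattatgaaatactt
Efcab6: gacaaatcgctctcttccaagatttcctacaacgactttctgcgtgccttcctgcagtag

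Of 33 members described below as broad, 3 repeat a stretch of at least 12 bases within their own 60, which is 9.09% against 1.7% of the probes tested and 2.35% of the other 85 members. The repeated stretch is in capitals. They lie at chr4:58967557-58967616, chr15:105038774-105038833 and chr18:74392517-74392576, all on the minus strand, and the files give none of them a gene name.
A_64_P045053: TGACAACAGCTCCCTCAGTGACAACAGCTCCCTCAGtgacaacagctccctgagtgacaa
A_44_P290734: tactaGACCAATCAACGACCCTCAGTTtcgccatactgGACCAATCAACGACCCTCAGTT
A_64_P087842: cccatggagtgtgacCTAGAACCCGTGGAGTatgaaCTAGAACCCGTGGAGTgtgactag

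A further 4 members without a gene name share sequence with the probe of Rpl19, which encodes a protein of the large ribosomal subunit. In all 4, and in the Rpl19 probe, a run of 18 bases is identical. Windows of 30 bases that hold this run but for its last base are aligned here, with capitals where a probe differs from the Rpl19 probe and positions counted from 1 at the 5′ end of the window.
Rpl19, A_64_P029701: cacatggatcagtcattaaaataaaacaag
A_64_P094980: cTcGtggatcagCcattaaaataaaacaag
A_64_P084268: cTcGtggatcagCcattaaaataaaacaag
A_64_P126595: cacGtggatcagtcattaaaataaaacaag
A_64_P151473: cacGtggatcaAtcattaaaataaaacaag
All 4 members carry A4G relative to the Rpl19 probe, as does the non-member A_64_P118997, while the non-member A_64_P073048 does not. A_64_P151473 carries G12A as well, and A_64_P094980 and A_64_P084268 carry A2T and T13C.

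The 118 probes belong to 116 gene names as the files give them, of which 47 members carry a gene symbol and 58 could be matched to a RefSeq gene. They divided the 13 arrays in 53 different ways, and no division was that of WT against OE. The median gap was 2.25 and the widest 7.97. On 87 of the 118 none of the arrays below the gap read the probe well above background, so only a lower bound of the difference can be given there. On 20 all the arrays below the gap did. Both groups had arrays on both sides for 63 members. The arrays below the gap were all OE for 17 and all WT for 6, and those above it were all WT for 20 and all OE for 12.

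The members fell into 2 kinds by the number of arrays above the gap, a division chosen after the values were seen. There were 33 with at least 4 arrays above it, called broad here, and 85 with only 2 or 3, called narrow. For broad members, repeat arrays of 1 rat lay on the same side in all but 1 case. WT arrays 1 and 2 were together for 33 of 33 and OE arrays 1 and 2 for 32 of 33, the exception being A_44_P290734 (-7.11 on OE array 1 and -4.31 on OE array 2). WT array 5 lay with WT array 4, and OE array 4 with OE array 3, for all 33. Over the 14683 probes well above background everywhere, these were also the nearest arrays of those 2 repeats, with an SD of the difference of 0.148 and 0.19 on the log2 scale. For narrow members, WT arrays 1 and 2 were on opposite sides for 22 of 85 and OE arrays 1 and 2 for 11. OE array 4 stood apart from every array that could be its partner for 26, and WT array 5 for 9. In total, 51 of the 85 narrow members and 1 of the 33 broad members had repeats of 1 rat on opposite sides. The number of bright arrays bears on this contrast. With 2 arrays above the gap, a bright labeling has its repeat dim unless both bright arrays are of that rat. A repeat hybridization counted as apart only against every candidate, which is harder to meet when many arrays are bright. The 2 counts are therefore not a like measure of how well repeats matched.

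Spots of the same probe gave a second comparison. Among the 12 broad members printed at 2 or more spots, every spot on every array lay on the side of its probe, and the median range between spots on bright arrays was 0.102. Among the 13 narrow members with several spots, 7 had a spot on the other side, including all 5 whose repeat arrays disagreed, and the median range was 2.19. Wisp1, a secreted matrix-associated protein, shows what this looks like. Of its 2 spots, the first read -0.49 on WT array 4 and -6.89 on WT array 1. The second read -6.47 and -1.74 on the same arrays. Dnai1, an axonemal dynein chain, was bright at 1 spot only on both of its bright arrays, with -1.68 and -7.26 on WT array 4 and -1.42 and -7.28 on OE array 7. A single spot cannot be checked in this way, and 84.7% of the narrow members had 1 spot, against 63.6% of the broad members and 39.1% of the probes tested. When levels below an array's lowest reading well above background were raised to that reading, the gap still exceeded 1.5 for all 33 broad members and for 49 of the 85 narrow ones.

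The widest gap of all was that of Vegfb, a growth factor of the vascular endothelial growth factor family that is abundant in heart muscle. Its probe at chr1:209657830-209657889 (minus strand) read 2.35, 2.27 and 2.30 on WT arrays 4, 5 and 6 and 2.26 and 2.41 on OE arrays 1 and 2. On the other 8 arrays it read -7.23 to -5.72 and was not well above background. Bright arrays came from both groups and dim arrays did too, with no overlap between the 2 sides. The gap corresponds to a signal at least 165-fold higher on every bright array than on any dim array. Probes of 6 other genes within 20 kb (Dnajc4, Fkbp2, Ppp1r14b, Nudt22, Trpt1 and Fermt3) were well above background on the same bright arrays and did not divide the arrays this way. For the nearest of them, Dnajc4, the bright arrays of Vegfb read 0.63 to 0.67 and the dim arrays 0.64 to 0.85.

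Besides that of Vegfb, 7 divisions of the arrays were each shared by 2 to 6 broad members, which together took in 24 of the 33. In the first, WT arrays 4, 5 and 6 were dim and the other 10 arrays bright. Its members were both probes of Cd300lg, an adhesion receptor of the CD300 family found on endothelium, the olfactory receptor gene Olr857, LOC290876 and 2 unnamed probes, on chromosomes 5, 7, 10, 16 and 19. The Cd300lg probe A_64_P032951 read -3.23, -3.30 and -3.17 on WT arrays 4, 5 and 6. It read 1.67 to 1.93 on WT arrays 1 to 3 and OE arrays 1 and 2, and 0.50 to 1.13 on OE arrays 3 to 7. The second Cd300lg probe, 1012 bases away, read -2.47, -2.67 and -3.05 on WT arrays 4, 5 and 6, -0.06 to 0.27 on WT arrays 1 to 3 and OE arrays 1 and 2, and -0.79 to -0.54 on OE arrays 3 to 7. Both probes thus placed the arrays in the same 3 ranges. All 3 dim arrays were well above background with both, and the gaps correspond to 12.7-fold and 3.19-fold. Olr857 read -4.72, -4.43 and -4.17 on the dim arrays and -0.53 to -0.09 on the other 10.

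In the second shared division, OE arrays 1, 2, 5, 6 and 7 were dim, and all 6 WT arrays with OE arrays 3 and 4 were bright. It was held by Tnfrsf13c, the receptor through which B cells receive the survival factor BAFF, by Plekho2, a pleckstrin-homology domain protein, by RGD1309808, which RefSeq names Apol7b (a member of the apolipoprotein L family), and by 3 unnamed probes. They lie on chromosomes 4, 7, 8, 15 and 18. Plekho2 read 0.72, 0.76, 0.30, 0.76, 0.77 and 0.86 on WT arrays 1 to 6. On OE arrays 1 to 7 it read -4.56, -4.13, 0.59, 0.58, -4.36, -4.40 and -4.42. OE arrays 3 and 4 lay within the range of the WT arrays, and the other 5 OE arrays lay far below it. All 5 were still well above background, and the gap corresponds to 21.7-fold. RGD1309808 read 0.96 to 1.51 on the WT arrays, 1.19 and 1.29 on OE arrays 3 and 4, and -4.12 to -3.56 on the other OE arrays. Tnfrsf13c read -1.22 to -0.16 on the WT arrays, -0.37 and -0.43 on OE arrays 3 and 4, and -7.32 to -6.38 on the rest, which were not above background. Tnfrsf13c and RGD1309808 are both on chromosome 7 but 4.94 Mb apart, with 169 RefSeq genes between them. Both A_64_P087842 and A_64_P045053, whose repeated stretches are shown above, belong to this division. The third such probe, A_44_P290734, differed from it only in OE array 2.

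The 4 probes that share sequence with Rpl19 made up the third division, with OE arrays 3, 4, 5 and 7 dim. A_64_P094980, at chrX:93594337-93594396 (minus strand), read 5.05 to 5.19 on the 6 WT arrays. On OE arrays 1 to 7 it read 5.07, 5.03, 0.80, 1.45, 1.505, 6.00 and 1.37. The arrays therefore fell into 3 ranges, with OE array 6 highest, OE arrays 3, 4, 5 and 7 lowest, and the rest between 5.03 and 5.19. A_64_P084268, 392.9 kb away on the same chromosome, read 6.45 on OE array 6, 2.09 to 2.61 on the 4 dim arrays and 5.49 to 5.74 on the others. A_64_P126595 on chromosome 6 and A_64_P151473 on chromosome 5 kept the same order of the 3 ranges (5.53, 1.30 to 1.82 and 4.58 to 4.83, and 6.66, 3.38 to 3.70 and 5.82 to 5.97). The Rpl19 probe, which is not a member, ran the other way. It read 6.99, 7.21, 7.15 and 7.20 on OE arrays 3, 4, 5 and 7, 6.07 on OE array 6, and 6.60 to 6.89 on the other 8 arrays. Its highest and lowest arrays were thus the lowest and highest of the 4 members, by a smaller margin. Of 4 further non-member probes that share at least 18 bases in a row with 1 of the 4 members, A_64_P010860, A_64_P073048 and A_64_P118997 kept every bright array above every dim array, by 0.58, 0.53 and 0.02, and A_64_P097168 did not. The same order was kept by 0.572% of the 14679 non-member probes that were well above background on the bright arrays. These 4 are probes that share sequence with each other as well, so they are not separate readings of separate genes.

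RGD1306750, which RefSeq names Glal, and Tas2r120, a bitter taste receptor, were dim on OE arrays 5 and 7 only. Their probes lie 25.4 kb apart on chromosome 4, and RefSeq lists 0 genes between them. RGD1306750 read -7.21 and -7.10 on OE arrays 5 and 7 and -1.97 to -0.57 on the other 11 arrays. Tas2r120 read -7.25 and -7.18 on those 2 arrays and -3.46 to -1.78 on the others. The highest levels of both came from WT arrays 1 and 2, at -0.68 and -0.57 for RGD1306750 and -1.78 and -2.01 for Tas2r120. The probes share no run longer than 5 bases. The gaps give bounds of at least 18.2-fold and at least 6.47-fold.

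Fam111a, a nuclear protease that acts in DNA replication and restricts some viruses, was dim on OE arrays 5 and 6 with both of its probes. The probe at chr1:215596354-215596413 (plus strand) read -7.34 and -6.80 on those arrays. It read 1.14 and 1.11 on WT arrays 4 and 5, -0.61 on OE array 7 and -0.15 to 0.03 on the other 8. The second probe read -7.20 and -7.06 on the dim arrays, 0.90 and 0.91 on WT arrays 4 and 5, and -0.92 on OE array 7. The 2 probes overlap by 37 bases, the first 30 of which are cacgttccttgaaacttaaaccaatttcaa, so they are not independent readings. A probe without a gene name 1982 bases from the first, A_64_P123207, read 6.93 to 7.03 on the 2 dim arrays and 6.87 to 7.14 on the others.

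Pdzk1, a scaffold protein with PDZ domains, and LOC365837 were dim on OE arrays 5, 6 and 7. Pdzk1, at chr2:191674545-191674604, read -6.44, -6.80 and -6.45 there and -2.62 to -1.99 on the other 10 arrays, a bound of at least 11.4-fold. A probe of Gpr89b 2173 bases away read -0.73 to -0.66 on the dim arrays and -0.73 to -0.47 on the bright ones, so the arrays overlapped. LOC100909554 and the unnamed A_64_P066586, both on the X chromosome, were bright on WT arrays 4, 5 and 6 and OE arrays 5 and 6. A_64_P066586 read 3.84 to 3.93 on those 5 arrays and 0.42 to 0.82 on the other 8. LOC100909554 read 3.02 to 3.16 and 0.89 to 1.37.

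Vegfb and 8 other broad members each held a division of their own, among them A_44_P290734 and the probes of Grm4, Usp9x and Pcmtd1 described below. Ccng1, cyclin G1, read 0.42 to 0.57 on WT arrays 4, 5 and 6 and OE array 5 and 3.37 to 3.54 on the other 9. Pof1b, an actin-binding protein, was dim on WT array 3 and OE arrays 1 and 2 (-7.25 to -6.74, against -3.74 to -2.54). A_44_P403350 was dim on WT arrays 4, 5 and 6 and OE arrays 3 and 4 (-7.71 to -6.45), highest on OE arrays 5 and 7 (-0.003 and -0.34) and between -1.46 and -0.94 on the other 6. Efcab6, an EF-hand calcium-binding protein, had more than 2 ranges. It read 1.43, 1.63 and 1.71 on WT array 6 and OE arrays 3 and 4, 0.36 to 0.42 on OE arrays 1, 2 and 5, and 0.94 on OE array 6. On the other 6 arrays it read -1.94 to -1.70, and its widest gap left 7 arrays above.

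Among all 33, OE arrays 7 and 5 were below the gap most often, for 22 and 21 members, and WT arrays 1 and 2 least often, for 5 each. Narrow members were above the gap most often on WT array 4 (31 of 85), OE array 4 (28), OE array 7 (24) and WT arrays 1 and 6 (23 each). They were above it least often on WT array 2 (1), WT array 3 (2) and OE array 3 (2). The X chromosome held 6 of the 33 (18.2%), against 3.5% of the probes tested and 2.4% of the narrow members. Of those 6, 2 are the Rpl19-sharing probes. A gene symbol was given for 48.5% of the broad members and 74.5% of the probes tested. The GC content of the probe was alike, with a median of 45% in broad members, narrow members and all probes tested.

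Other probes of the same gene name were then compared. An other probe well above background on all bright arrays was found for 18 members, in 19 pairs. In 5 of the 19 the other probe kept all bright arrays above all dim arrays. For the same divisions, 1.57% of non-member probes well above background on the bright arrays did so. All 5 were among the 9 pairs of broad members, for whose divisions the share of non-member probes was 1.42%. They were the pairs of Fam111a and of Cd300lg, read in both directions and all members themselves, and the pair of Grm4. In pairs whose other probe was not a member, 1 of 15 kept the arrays apart, which was Grm4, a metabotropic glutamate receptor. Its member probe A_43_P15406 read -3.32 to -2.07 on WT arrays 1 to 3 and OE arrays 1 to 4 and -7.50 to -5.53 on the other 6. The second probe, which overlaps it by 15 bases by position, read -2.17 to -1.22 and -3.82 to -2.19 on the same arrays. It therefore kept the division by 0.02, with WT array 6 (-2.19) next to OE array 4 (-2.17).

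For the other broad members with a second probe the division was not kept. The second probe of RGD1309808, 3062 bases away, read -0.06 to 0.30 on the 8 arrays where the member was bright and 0.20 to 0.36 on the 5 where it was dim. Pcmtd1, a methyltransferase-domain protein, was dim with its member probe on WT arrays 1 and 2 and OE arrays 1, 2 and 7 (-3.52 to -2.49, against -0.51 to -0.14). Its second probe read -3.01 to -2.60 on the dim and -2.91 to -2.66 on the bright arrays. Usp9x, an X-linked deubiquitinating enzyme, was bright with its member probe on WT arrays 1 and 2 (-1.44 and -1.46) and OE arrays 1 and 2 (-1.56 and -1.48) and read -3.85 to -3.64 on the other 9. Those 4 arrays are the repeat labelings of 2 rats, 1 of each group. On both other probes of Usp9x the same 4 arrays were the lowest, by small steps, at -0.88 to -0.64 against -0.64 to -0.34 and at -0.04 to 0.05 against 0.09 to 0.22. Neighbouring probes of other genes within 20 kb were well above background for 7 broad members, in 15 pairs. None of the 15 kept the division, against 1.58% of non-member probes.

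None of the 10 other probes of narrow members kept the division either. Trim16, an E3 ubiquitin ligase of the tripartite motif family, was bright on OE arrays 6 and 7 (-0.86 and -0.99) and read -5.78 to -4.36 on the other 11. Its second probe, 1866 bases away, read -2.61 and -3.46 on those 2 arrays and -3.39 to -2.34 on the others. Cacfd1, which holds a flower calcium-channel domain, was bright on OE arrays 5, 6 and 7 (-3.20 to -3.01) and its second probe read -2.15 to -1.92 there and -2.11 to -1.72 elsewhere. Rnf123, a ubiquitin ligase, was bright on WT arrays 5 and 6 (-1.91 and -1.94), with 0.02 and 0.14 on the second probe against -0.08 to 0.29 elsewhere. Zfp496 and Flt3, the receptor of an early blood-cell growth factor, also had a second probe whose bright and dim arrays overlapped.

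For 6 of the 13 narrow members with several spots, every spot lay on its probe's side and no repeat array disagreed. Acsbg1, a long-chain acyl-CoA synthetase, read 2.67 and 1.91 on OE arrays 5 and 6 and -1.57 to -0.94 on the other 11, with both spots of every array on the same side. Gprc5d, an orphan receptor, was bright on both labelings of 1 WT rat (-1.27 and -1.20 on WT arrays 1 and 2, against -4.08 to -3.21). Ptprh, a receptor tyrosine phosphatase, was bright on WT arrays 4 and 5 (-3.49 and -3.21, against -7.28 to -5.94). Reg3g, an antimicrobial lectin, was highest on WT array 6 (-1.33) and OE array 6 (-1.18) and read -5.15 to -2.95 elsewhere. These 2 arrays were also the highest of their group in the atrial and adipocyte marker means. WT array 6 read 1.17 and -2.13, against 0.24 to 0.62 and -2.74 to -2.33 on the other WT arrays. OE array 6 was the highest OE array for smooth muscle markers as well (-0.31, against -1.47 to -0.93). WT array 6 was not the highest WT array for these, at -1.415 in a WT range of -1.5 to -0.9. The part of these cell types in the Reg3g reading was not tested. LOC679989 and A_64_P140144, 4.8 kb apart on the X chromosome, were bright on OE arrays 1 and 2 only. LOC679989 read -2.81 and -2.66 there and -7.10 to -5.31 elsewhere, and A_64_P140144 read -0.61 and -0.37 against -2.87 to -2.22. Tmem136, a multi-pass membrane protein, had the widest narrow gap (4.53). It was bright on WT arrays 1 and 4 and dim on WT array 2, the second labeling of WT rat 1. Slc9b2, a sodium-proton exchanger, divided the arrays in the same way. LOC689569 was bright on OE arrays 1 and 4, and dim on OE array 2. Actl9b, an actin-like protein, was bright on WT array 6 and OE array 7 (-2.49 and -2.69, against -7.58 to -6.05). Gimd1 was bright on WT arrays 5 and 6, Spatc1l on OE arrays 5 and 7, and the vomeronasal receptor gene Vom1r111 on WT arrays 1, 4 and 5 but not on WT array 2. LOC names made up 15.3% of the 118 members and 3.99% of the probes tested. Vomeronasal receptor names were those of 4 members, all narrow (3.39%, against 0.134%). Repeat arrays of 1 rat were on opposite sides for Vom1r111, Vom2r4 and Vom1r35, while Vom2r33 was not counted among these. No member had a name of the Gst, Cyp, Ugt, Klr, Klk, Defb, Serpin or Pcdh families. Each of these made up only 0.0154% to 0.195% of the probes tested, so their absence among 118 members is no result.

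The design's comparison of OE with WT was made over the 9 rats with limma, a linear model with moderated variances, adjusted by Benjamini-Hochberg over all 19457 probes. No member passed an adjusted p of 0.05, and 1 probe of all tested did (0.00514%). At an unadjusted p under 0.05 there were 24 of 118 members and 8.67% of all probes. The members were 14 after quantile normalization (9.45% of all probes) and 15 without OE rat 5 (7.17%). They were 5 and 3 in fits of rats 1, 3 and 6 alone, with and without the replicate number as a block (8.22% and 7.68%). All 6 members of the second shared division are among the 24, so the 24 are not separate readings. No excess over all probes is claimed. The 2 groups of rats did not overlap for 4 members (LOC289334, LOC685560, Ptprh and A_64_P135763), against 3.36% of all probes. All 4 are narrow and read lower in OE rats. In each, however, all OE rats and the lowest WT rat read below their array's lowest reading well above background. The groups were thus set apart at background level, and lower expression in OE rats is not shown. The count of 4 is close to the share over all probes, and it was 2 after quantile normalization. The count was 10, 22 and 7 without WT rat 1, 3 or 6, and 13 and 8 without OE rat 3 or 6. Fewer rats overlap less easily, and the share over all probes was not worked out for these fits. Those counts are therefore no result about the members. In LOC685560 and A_64_P135763, OE array 4, which is not among the 9 rats, was above the gap, and in LOC289334 the 2 labelings of WT rat 1 were on opposite sides.

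The lowest p-values belonged to the division in which OE arrays 1, 2, 5, 6 and 7 were dim. Plekho2 averaged 0.67 ± 0.25 in WT rats (SD, n = 4) and -3.39 ± 2.22 in OE rats (SD, n = 5). The difference was -4.05 with a standard error of 1.01, with a limma adjusted p of 0.38 and an exact two-sided permutation p of 0.0238. RGD1309808, of the same division, had the same permutation p. That value is not adjusted for the 118 members, from which this division was picked by its low p-values. It therefore carries no test. RGD1309808 averaged 1.28 ± 0.23 (SD, n = 4) and -2.73 ± 2.20 (SD, n = 5), and Tnfrsf13c -0.58 ± 0.45 and -5.58 ± 2.93. The smallest permutation p that 4 against 5 rats allow is 0.00794. These differences rest on 4 of the 5 OE rats. Without OE rat 3, 7 members passed, namely Plekho2 (-5.05, limma adjusted p = 3.33e-06), RGD1309808, Tnfrsf13c, A_64_P059790, A_64_P087842, A_64_P045053 and A_44_P290734, beside 0.0668% of all probes. The rule chose these probes for a wide gap, and without OE rat 3 that gap fell between the groups. The low p-values of this fit therefore follow from the choice of probes and are no test. With the slide as a block 7 members and 0.0668% of all probes passed, 6 of the members being the same and the other Ttll4, a tubulin-modifying ligase whose 2 OE labelings were on opposite sides. That estimate rests on slides 1 and 3 alone, with WT rats 1, 4 and 6 and OE rats 1 and 7, since the other slides held rats of 1 group. OE rat 3 does not enter it, so it is no separate result from leaving that rat out. Within slides, Plekho2 differed by -5.19 on slide 1 (1 WT and 1 OE array), -5.35 on slide 3 (3 and 1) and -3.49 on slide 4 (1 and 3). Within scan days it differed by -3.42 on day 1 (1 WT and 3 OE arrays) and -3.87 on day 2 (5 and 4).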

How the data were processed

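Each array's deposited scanner file held a background-subtracted, detrended intensity per spot, a background flag, probe sequences and rn4 positions. It was written by Agilent Feature Extraction 10.7.1.1, per the file headers. From it, log2 intensity minus the array's 75th percentile was averaged over the spots of a probe. The authors' deposited series table holds natural log values of 20000 probes, inferred from the scanner signals; its scaling between arrays and centring stay unknown, and it served as an alternative. Replicate labelings were averaged; both replicate hybridizations without a named partner were left out of tests. Groups were compared in limma 3.58.1 (R 4.3.3; lmFit and eBayes), for probes well above background on at least 2 arrays. The limma step was checked on simulated data with the same SD for all probes, which does not cover the wide gaps of the members. P-values measure the spread between these rats, and 9 rats limit the precision. Same-numbered rats did not pair by their labels. RefSeq supplied gene names and order only. The named probes were the 12 with a symbol and the widest gaps, those with another probe of the name, those bright in 1 group only, gene-order neighbours, the widest without a symbol, and the 3 on each side of the gap of 1.5. Other named probes, among them Ccng1, Pof1b, Efcab6, Wisp1, Reg3g, Gprc5d, LOC679989 and those sharing sequence with Rpl19, were chosen after their values were seen. Members and lists were chosen with earlier results of these data known. The alternatives were other scalings, background corrections, gaps, filters, batches and arrays left out.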

Additional observations from a re-analysis of the deposited data

Results flagged for a closer look

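Of 98 groups of rats or arrays examined among the named probes and marker lists, 23 held 1 sample whose distance to the nearest other was a large share of the group's range. Chance gives about 1 such group in 20, and these probes were chosen for having a gap. Levels are log2 relative to the array's 75th percentile, and rat 1 of each group is the mean of 2 labelings.

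Among the 5 OE rats, OE rat 3 stood apart for Tnfrsf13c (-0.37, against -7.23 to -6.38 in the other 4), RGD1309808 (1.19, against -3.85 to -3.57), Plekho2 (0.59, against -4.42 to -4.35), A_44_P403350 (-7.0, where the others were higher) and Gimd1 (-6.03, against -7.15 to -7.0). OE rat 1 stood apart for Vegfb (2.33, against -7.23 to -6.86), Usp9x (-1.52, against -3.85 to -3.67), the Cd300lg probe A_64_P042742 (0.17, against -0.64 to -0.54) and LOC689569 (-4.23, the mean of labelings on opposite sides). OE rat 7 stood apart for Actl9b (-2.69), Flt3 (-2.71) and Dnai1 (-4.35), 3 narrow members.

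Among the 4 WT rats, WT rat 1 stood apart for Usp9x (-1.45, against -3.85 to -3.76) and Pcmtd1 (-3.12, against -0.39 to -0.25). WT rat 4 stood apart for the Fam111a probe A_64_P065265 (1.15, against -0.15 to -0.11) and Ptprh (-3.49). WT rat 6 did so for Actl9b (-2.49) and Rnf123 (-1.94). Usp9x and Actl9b were thus set apart by 1 rat in each group.

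Over arrays, the mean of the ventricular cardiomyocyte markers was lowest on WT array 3 (7.28, against 7.47 to 7.53) and highest on OE array 4 (7.66, against 7.39 to 7.5 in the other OE arrays). OE array 6 was highest for the atrial and conduction markers (1.89), the adipocyte markers (-1.14) and the mesothelium markers (-2.15).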

How the results depend on the processing

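The number of members was 118. It was 140 after quantile normalization, 82 with a gap over 2.0, 131 with no condition on background, between these with median scaling, and 92 to 148 with each array left out. It moved to 27 with normexp background correction, which compresses low signals, 222 with a gap over 1.0, 36 with at least 3 arrays on each side, 72 over the 9 rats, and 23 in the authors' deposited table, which holds 49 of the members. Of the 33 broad members, all were kept with quantile normalization, median scaling and 9 rats, 21 with normexp and 29 to 33 with an array left out. Of the 85 narrow ones, 6 were kept with normexp and 26 over 9 rats. With alternatives chosen after seeing the data, there were 79 members when low values were raised to the array floor, and 66 when those with repeat arrays on opposite sides were left out. Both labelings of a rat lay on the same side for 85 of 118 members, 150 of 222 with a gap over 1.0 and 60 of 82 with a gap over 2.0.

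No member passed between groups. This was 7 with the slide as a block, which drops OE rat 3 from the estimate, and 0 to 7 with a rat left out, where the 7 came without OE rat 3. In both cases 0.0668% of all probes passed. Without OE rat 3 the gaps chosen by the rule fell between the groups, so the 7 passes there are no test. At an unadjusted p under 0.05 there were 24 members (8.67% of all probes), and 14 after quantile normalization (9.45%). The 24 are not separate readings, since 6 of them hold 1 division of the arrays. There were 11 of 41 tested with a filter of 4 rats (9.16%), and 5 and 3 with and without the replicate block (8.22% and 7.68%). With a rat left out there were 15 to 33 members, against 7.17% to 9.66% of all probes. The number past an adjusted p of 0.05 was 0 under the other fits, with the lowest limma adjusted p among members between 0.146 and 0.589. With the replicate number as a block (rats 1, 3 and 6 of each group) it was 0, as without it. Same-numbered rats correlated by 0.167, 0.095 and 0.147 in their deviations from the group means. Rats of different numbers were not compared in this way, so these values cannot decide whether the numbers mark pairs. The groups did not overlap for 4 members, against 3.36% of all probes, and for 2 after quantile normalization. With a rat left out it was 4 to 22 (10, 22 and 7 without WT rat 1, 3 or 6, and 13 and 8 without OE rat 3 or 6). Fewer rats overlap less easily, and the share over all probes was not worked out for these alternatives. Among broad members alone, an alternative added after seeing the data, the number without overlap was 0. For other probes that kept the division, the count was 5, and 6 with no filter and 5 after quantile normalization. In comparisons added after seeing the data it was 2 of 43 for probes of another name within 20 kb and 21 of 31 for probes sharing at least 18 bases. These include pairs of members with each other, which keep the division through the choice of probes. With other probes that are not members it was 0 of 41 within 20 kb, 9 of 19 for shared sequence and 1 of 15 for the same name. For the division of the Rpl19-sharing probes, the share of non-member probes was 0.572%. In 2 cases a direction turned. The Flt3 gap was -0.3 with normexp, and the difference of Ttll4 was -0.47 without OE rat 7, against 0.55. The cause was not tested for either. For the 87 members whose dim arrays were not above background, the width of the gap is limited by that background.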
